A study of Mus musculus with 9 samples.

Results

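Transcripts of B cells, neutrophils, other myeloid cells and natural killer (NK) cells were followed in polyadenylated RNA of a preparation of mouse naive CD4+ T cells, the helper T cells that have not yet met antigen. The set holds 35 genes of the 55487 gene identifiers in the deposited tables, chosen by name: 19 B cell genes, 6 neutrophil genes, 6 genes of other myeloid cells and 4 NK genes. All 9 libraries were made from lymph nodes of wild-type (WT) C57BL6/J mice, and they form 3 groups of 3. The IL-1b-treated group was kept in vitro for 20 h with recombinant interleukin-1 beta at 10 ng/mL, the cultured group was kept for 20 h without it, and the fresh group was taken directly after isolation. The age and number of the mice, how the cells were purified and whether replicates came from separate mice or cultures are not stated, so the p-values may reflect no more than technical variation.

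Each lineage in the set is known by a characteristic machinery. B cells read antigen through membrane immunoglobulin, signal through its partner chains CD79A and CD79B, and present peptides on MHC class II, which the transactivator CIITA switches on. Neutrophils carry proteins such as lactoferrin and calprotectin and follow chemokines and G-CSF. Macrophages and dendritic cells depend on lysozyme, cathepsin inhibitors and Fc receptor adaptors. NK cells kill with perforin, a weapon they share with cytotoxic T cells. Naive CD4+ T cells are not known as a main source of most of these messengers, so their level is read in this field as a measure of other cells in a T cell preparation. In bulk RNA, fewer cells of a type and less RNA per cell cannot be told apart.

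Library totals ran from 13518818 to 23056660 counts. The 14 T cell identity genes, led by the T cell receptor constant genes Trbc2, Trbc1 and Trac, summed to 6885 to 7300 TPM (a level corrected for transcript length and library total) in IL-1b-treated, 7365 to 7650 TPM in cultured and 10270 to 10350 TPM in fresh libraries. The B cell sum is therefore also given as a percentage of this sum. Folds below are log2 fold changes with their standard error (SE) from edgeR's quasi-likelihood test on counts over all 9 libraries, with p-values adjusted by Benjamini-Hochberg over all 13043 genes tested and a threshold of 0.05. Of the 35 members 32 passed the filter on low counts; S100a8, Fcer1g and Ncr1 did not. For 17 of the 32 it was the fresh libraries alone that carried them past the filter, so a fall in those was built into their selection, and the other 15 are counted separately.

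Nearly all of these transcripts were lower after 20 h in vitro, whether or not IL-1b was present. Of the 32 tested members, 30 fell and 1, the cysteine protease inhibitor gene Cst3, rose in cultured compared with fresh cells, where 28.9% of all genes tested fell and 29.4% rose, 58.2% in all. The count of members that fell by at least 2 on the log2 scale was 28, against 2.81% of all genes tested. In IL-1b-treated compared with fresh cells 30 members again fell and Cst3 again rose, where 32.6% of all genes tested fell and 32.9% rose, 65.5% in all (1527 genes higher and 7113 lower on log2(TPM + 1) with limma, where 1877 genes were higher in cultured cells), and 28 members fell by at least 2 on the log2 scale, against 3.2% of all genes. These comparisons share the fresh libraries. Among the 15 members that passed the filter without help of the fresh libraries, 13 fell, 1 rose and 1 was not called in each of them. The 28 members that fell by at least 2 include all 17 that passed through the fresh libraries alone, so that count is a description. Ighm and Klrd1, which fell by less than 2 in both comparisons, are among the 15. Without any filter, the highest cultured TPM lay below the lowest fresh TPM for 32 of 35 members (43.1% of all genes tested), and the highest IL-1b-treated TPM lay below the lowest fresh TPM for 31 of 35 (56.4% of all genes tested).

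**Figure D1:**
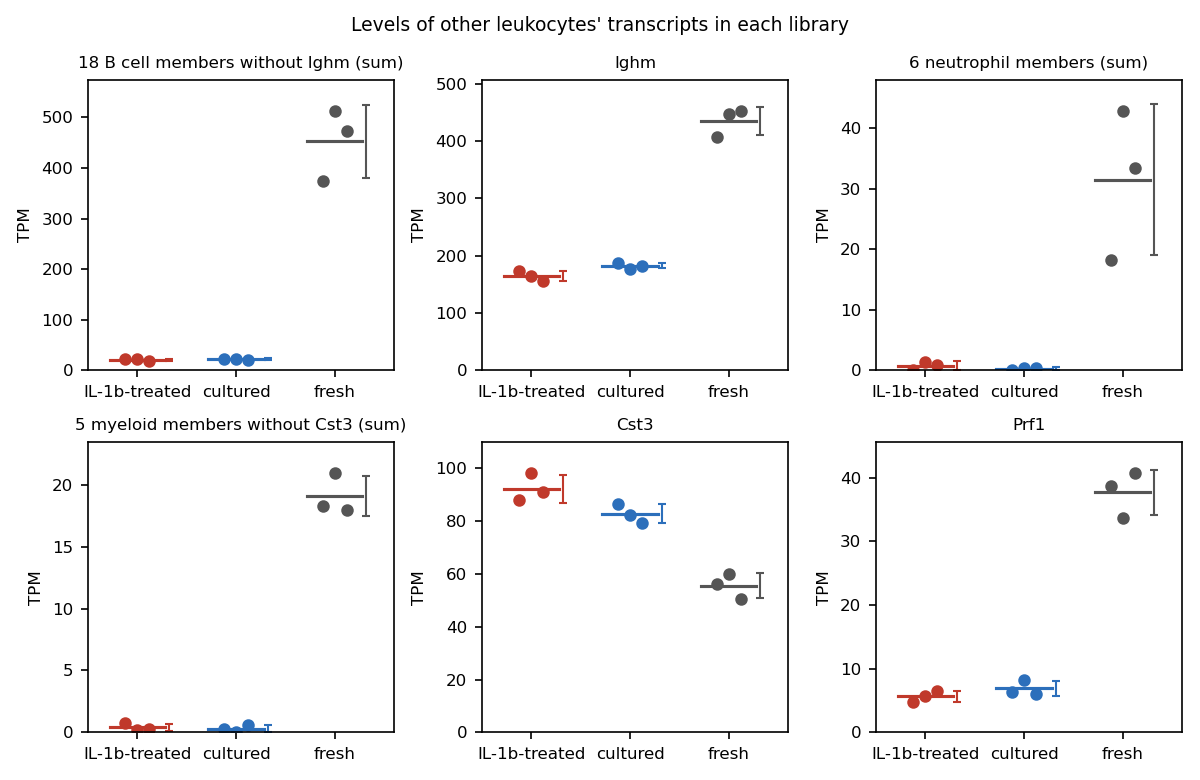
Level in TPM (linear axes from 0) in each library of 6 genes or sums of genes, by group. Points are libraries, horizontal lines are means over 3 libraries and vertical bars beside them are the SD. The B cell sum without Ighm, the neutrophil sum, the myeloid sum without Cst3 and Prf1 are low in IL-1b-treated and cultured libraries and high in fresh ones, Ighm keeps a substantial level in all, and Cst3 is highest with IL-1b and lowest in fresh libraries.

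The B cell members gave the largest signal of another lineage. Their 19 levels summed to 194, 186 and 174 TPM in IL-1b-treated libraries, 208, 200 and 202 TPM in cultured libraries and 780, 959 and 925 TPM in fresh libraries. Every fresh library was far above every library kept in vitro, and the mean sum was 4.36-fold lower in cultured and 4.80-fold lower in IL-1b-treated than in fresh cells. As a share of the T cell identity sum the B cell sum was 2.596 ± 0.203% in IL-1b-treated cells, 2.71 ± 0.0771% in cultured cells and 8.62 ± 0.952% in fresh cells (SD, n = 3 each). Most of what stayed after culture was a single messenger, Ighm. Without it the B cell sum was 21.2, 21.9 and 18.4 TPM in IL-1b-treated, 21.5, 23.0 and 19.2 TPM in cultured and 373, 513 and 473 TPM in fresh libraries, which makes it 21.3-fold lower in cultured and 22.1-fold lower in IL-1b-treated than in fresh cells. All 19 B cell members passed the filter, 8 of them (Ms4a1, Cd22, Pax5, Ebf1, Blnk, Cr2, Mef2c and Igha) through the fresh libraries alone, and all 19 were called lower in both comparisons with fresh cells. Their median log2 fold change was -4.11 in IL-1b-treated and -4.09 in cultured cells, where the median of all genes tested was -0.01 and 0.0038.

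Ighm encodes the constant region of the IgM heavy chain, the immunoglobulin of naive B cells, at chr12:113418558-113422730 on the minus strand of GRCm38 (mm10). Transcripts of its unrearranged constant region are also known from T cells. Its level was 173, 164 and 156 TPM in IL-1b-treated libraries, 187, 177 and 182 TPM in cultured libraries and 407, 447 and 452 TPM in fresh libraries. The groups kept in vitro did not overlap with the fresh group, and the log2 fold change was -0.84 ± 0.04 (adjusted p = 2.27e-14) in IL-1b-treated and -1.003 ± 0.04 (adjusted p = 1.82e-15) in cultured against fresh cells. This was the smallest fall among the B cell members in both comparisons with fresh cells. Ighm made up 88.2 to 89.5% of the B cell sum in IL-1b-treated libraries, 88.5 to 90.5% in cultured and 46.6 to 52.1% in fresh libraries.

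The other constant regions did not keep that level. Igkc, the constant region of the kappa light chain with which IgM pairs in most mouse B cells, had 4.67, 5.04 and 3.60 TPM in IL-1b-treated, 2.26, 6.19 and 3.98 TPM in cultured and 96.5, 149 and 114 TPM in fresh libraries. It fell by 4.11 on the log2 scale in IL-1b-treated cells (SE 0.24, adjusted p = 5.76e-13) and by 4.53 in cultured cells (SE 0.25, adjusted p = 3.26e-13) against fresh cells, and overlaps the gene model Gm30211 on the same strand. The TPM of Ighm was 32.6 to 43.3 times that of Igkc in IL-1b-treated, 28.6 to 82.7 times in cultured and 2.997 to 4.21 times in fresh libraries, so heavy and light chain transcripts did not keep 1 ratio across the groups. Ighd, the IgD heavy chain that naive B cells make from the same primary transcript as IgM, ranged over 0.94 to 1.61 TPM in IL-1b-treated, 0.67 to 1.67 TPM in cultured and 11.1 to 19.9 TPM in fresh libraries. Igha, the heavy chain of IgA made by switched B cells and plasma cells, had 3 counts in all over the IL-1b-treated libraries, 0 over the cultured libraries and 270 over the fresh libraries. This makes Igha at least 80.4-fold lower in cultured than in fresh cells, taking 3 counts over the group as the floor, and 83.3-fold lower in IL-1b-treated cells (exact 95% interval 28.2 to 406, counting error only).

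The B cell receptor signalling genes fell together. Cd79a and Cd79b, the signalling chains of the receptor, had 0.41 to 1.41 and 0.62 to 1.57 TPM in IL-1b-treated, 1.00 to 1.96 and 0.89 to 1.90 TPM in cultured and 10.9 to 16.2 and 10.2 to 18.02 TPM in fresh libraries. Blnk, the adaptor that links the receptor to phospholipase C, was sparse at 0 to 9 counts in IL-1b-treated, 0 to 3 counts in cultured and 12 to 61 counts in fresh libraries. Ms4a1, which encodes CD20, changed by -3.72 ± 0.41 in IL-1b-treated and -4.06 ± 0.42 in cultured against fresh cells (log2, SE). The coreceptors and brakes behaved alike: Cr2, the complement receptor CD21, changed by -6.02 ± 0.59 and -4.39 ± 0.49, and Cd22, an inhibitory lectin of B cells, by -4.91 ± 0.46 and -4.74 ± 0.44 in IL-1b-treated and cultured against fresh cells. Fcer2a, the low-affinity IgE receptor CD23, changed least among these surface genes, by -2.65 ± 0.37 in IL-1b-treated and -2.82 ± 0.37 in cultured against fresh cells. Ms4a1 and Cd22, like Pax5 and Ebf1 below, overlap other gene models on the opposite strand, whose reads may be included. The falls of Cd79a, Cd79b and Fcer2a passed the test, and these genes pass the filter also without the fresh libraries. Ms4a1, Cd22, Cr2 and Blnk entered the test through the fresh libraries alone, so their falls are a description, and Blnk in IL-1b-treated cells had adjusted p = 0.00164 with edgeR and 0.0596 with DESeq2.

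The B lineage transcription factors were weakly expressed even in fresh cells. Pax5, which keeps B cells committed, had 1.95, 5.22 and 4.36 TPM in fresh libraries, and Ebf1, which specifies the lineage, 0.34, 0.66 and 0.69 TPM. In IL-1b-treated libraries Pax5 had 0, 10 and 9 counts, in cultured libraries 8, 6 and 0 and in fresh libraries 162, 184 and 120. The 10 counts of IL-1b-treated replicate 2 stand as 2.95 TPM, above the lowest fresh library, because the deposited effective length there was 259 bases. Ebf1 had 3 counts over the IL-1b-treated libraries, 1 over the cultured and 93 over the fresh ones. Mef2c, a MADS box factor needed for B cell proliferation, had 0 counts in every IL-1b-treated library, 5, 0 and 7 in cultured libraries and 88, 69 and 43 in fresh libraries. Mef2c was at least 61.7-fold lower in IL-1b-treated than in fresh cells, and its log2 fold change in cultured against fresh cells was -3.79 ± 0.63.

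**Figure D2:**
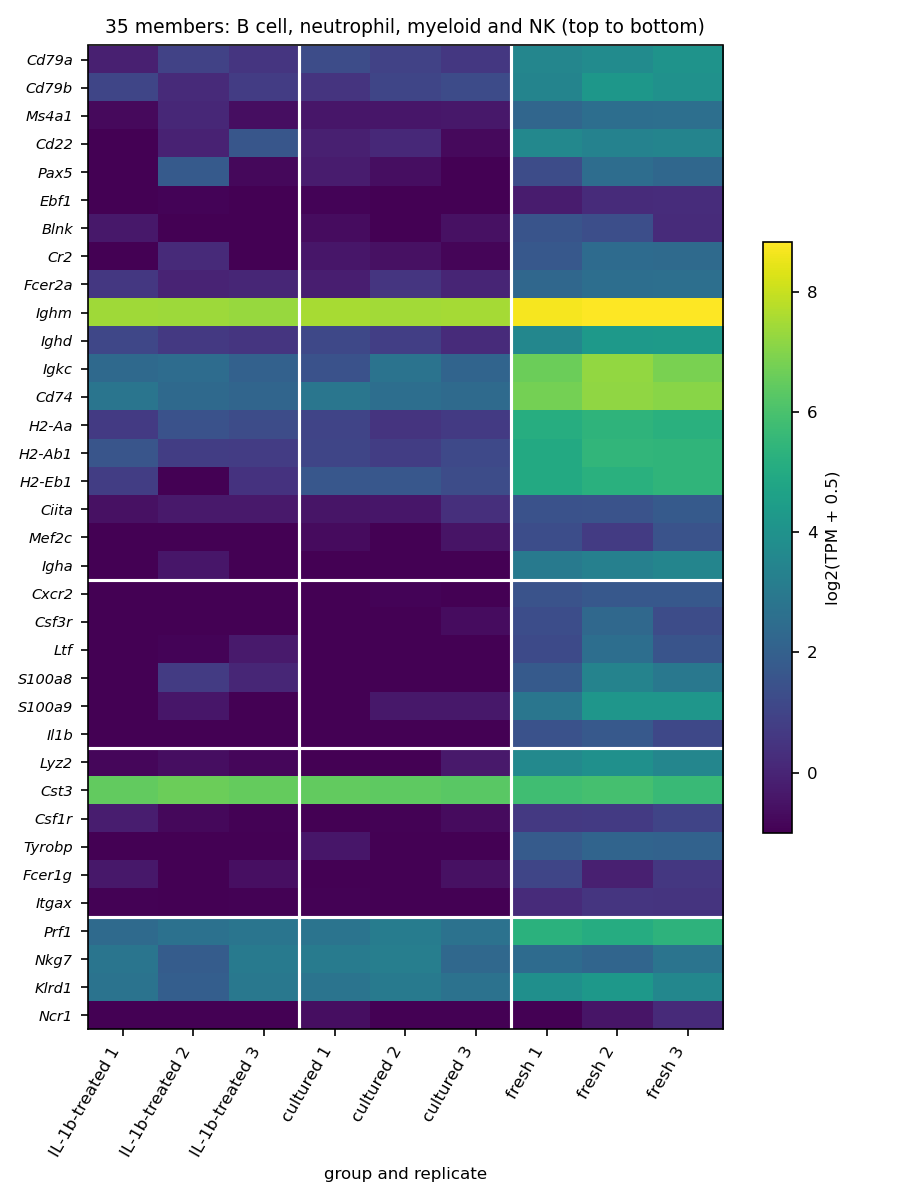
Level of each of the 35 members in each library as log2(TPM + 0.5), with libraries in columns grouped by treatment and members in rows grouped as B cell, neutrophil, myeloid and NK genes. The fresh columns are brighter for nearly every row, while Ighm, Cst3, Nkg7 and Klrd1 keep colour in the columns of cells kept in vitro.

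The antigen presentation genes were the second large block of the B cell transcripts. MHC class II is made by B cells, dendritic cells and activated macrophages, and mouse T cells are known for lacking it. Cd74, the invariant chain that escorts class II molecules, had 6.49, 4.6 and 4.16 TPM in IL-1b-treated, 6.74, 5.37 and 4.77 TPM in cultured and 110, 147 and 136 TPM in fresh libraries. It changed by -4.19 ± 0.16 in IL-1b-treated (adjusted p = 2.49e-16) and -4.24 ± 0.16 in cultured cells (adjusted p = 3.46e-16) against fresh cells. The alpha chain gene H2-Aa had 1.10, 2.28 and 1.95 TPM in IL-1b-treated, 1.53, 0.88 and 1.09 TPM in cultured and 34.1, 41.1 and 37.6 TPM in fresh libraries. Its partner beta chain gene H2-Ab1 had 2.55, 1.23 and 1.16 TPM in IL-1b-treated, 1.58, 1.24 and 1.77 TPM in cultured and 30.4, 43.2 and 43.1 TPM in fresh libraries. The beta chain gene of the other class II molecule, H2-Eb1, had 1.24, 0 and 0.86 TPM in IL-1b-treated, 2.71, 2.71 and 1.96 TPM in cultured and 30.8, 36.9 and 43.0 TPM in fresh libraries. For all 4 genes the fresh group lay above both groups kept in vitro without overlap. Ciita, the transactivator that controls all of them, was called lower too, with 0.17 to 0.30 TPM in IL-1b-treated, 0.24 to 0.75 TPM in cultured and 2.26 to 2.92 TPM in fresh libraries. Its adjusted p was 4.98e-08 in IL-1b-treated and 1.89e-07 in cultured against fresh cells, and it overlaps Dexi on the other strand.

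Class II promoters share a short block just before the start site whose last element is a CCAAT box bound by the factor NF-Y. H2-Aa and H2-Eb1 moved together between fresh cells and cells kept in vitro. Between IL-1b-treated and cultured cells they were called in opposite directions, from few reads. Neither of those calls held with only the 6 libraries compared. Their promoters are shown for these reasons. Both are 140 bases of RefSeq sequence on GRCm38.p6, ending at the base before the annotated start, 5′ to 3′ on the gene's strand, with each CCAAT or its reverse complement ATTGG in capitals.
H2-Aa, chr17:34287824-34287963, minus strand: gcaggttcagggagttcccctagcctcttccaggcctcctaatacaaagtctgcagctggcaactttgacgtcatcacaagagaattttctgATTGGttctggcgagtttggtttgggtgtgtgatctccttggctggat
H2-Eb1, chr17:34305727-34305866, plus strand: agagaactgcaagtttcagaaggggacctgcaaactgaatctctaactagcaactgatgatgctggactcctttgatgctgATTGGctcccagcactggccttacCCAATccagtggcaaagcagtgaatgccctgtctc
H2-Aa has 1 match, from base -48 to -44, and H2-Eb1 has matches from -59 to -55 and from -35 to -31. RefSeq windows of the 250 bases before the start were matched to 23 of the 35 members, of which 9 held CCAAT on either strand in at least 1 window, and 33.8% of all 32851 windows hold it. These matches describe the letters, and whether a factor binds there was not tested.

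The neutrophil members nearly vanished from the libraries after culture. Their 6 levels summed to 0, 1.41 and 0.84 TPM in IL-1b-treated, 0, 0.31 and 0.40 TPM in cultured and 18.2, 42.8 and 33.5 TPM in fresh libraries. All 6 were present in every fresh library, and all 5 that were tested fell in both comparisons, though each of them passed the filter through the fresh libraries alone. S100a9, a subunit of calprotectin, had 0, 1 and 0 counts in IL-1b-treated, 0, 1 and 1 in cultured and 30, 53 and 44 in fresh libraries. Its level in fresh libraries was 6.74, 17.5 and 17.6 TPM. S100a8, the other subunit, encoded nearby on chromosome 3, had 0, 4 and 2 counts in IL-1b-treated, 0 in every cultured and 12, 27 and 16 in fresh libraries. It was not tested and was at least 16.4-fold lower in cultured and 8.48-fold lower in IL-1b-treated than in fresh cells (exact 95% interval of the IL-1b value 3.66 to 24.1). Ltf, the iron-binding granule protein lactoferrin, had 0, 1 and 2 counts in IL-1b-treated, 0 in every cultured and 46, 59 and 30 in fresh libraries, which makes it at least 40.2-fold lower in cultured cells.

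The receptors that guide neutrophils moved like S100a8, S100a9 and Ltf. Cxcr2, the receptor of neutrophil-attracting chemokines, had 0 counts in every IL-1b-treated library, 0, 1 and 0 in cultured and 99, 83 and 62 in fresh libraries, and was at least 75.3-fold lower in IL-1b-treated than in fresh cells. Csf3r, the receptor of G-CSF, had 0 counts in every IL-1b-treated library, 0, 0 and 1 in cultured and 53, 56 and 42 in fresh libraries, and was at least 46.6-fold lower in IL-1b-treated than in fresh cells. The gene Il1b itself, whose protein was added to the medium, had 0 counts in all 6 libraries of cells kept in vitro and 36, 34 and 17 counts in fresh libraries. It was at least 26.8-fold lower in IL-1b-treated and at least 25.9-fold lower in cultured than in fresh cells, so no transcript of the cytokine was counted in the culture to which the protein was added. Il1b overlaps the antisense gene Il1bos, and it is not stated whether the authors' counting kept the strands apart.

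The myeloid members split into Cst3 and the rest. Cst3 encodes cystatin C, a secreted inhibitor of cysteine proteases that is abundant in dendritic cells and macrophages and made at lower levels by most cells. Its level was 87.8, 98.0 and 90.9 TPM in IL-1b-treated, 86.6, 82.4 and 79.4 TPM in cultured and 56.2, 59.9 and 50.5 TPM in fresh libraries. The 3 groups did not overlap, and Cst3 rose by 1.32 ± 0.08 in IL-1b-treated (adjusted p = 2.62e-12) and by 0.83 ± 0.08 in cultured cells (adjusted p = 1.43e-08) against fresh cells on the log2 scale. It was the sole member called higher in either comparison with fresh cells. Because Cst3 made up 99.2 to 99.8% of the myeloid sum in IL-1b-treated libraries, 99.3 to 99.98% in cultured and 73.8 to 75.4% in fresh libraries, the sum of all 6 was 92.6 ± 5.03 TPM in IL-1b-treated, 83.1 ± 3.49 TPM in cultured and 74.6 ± 6.17 TPM in fresh libraries (SD, n = 3 each). Without Cst3 the sum was 0.72, 0.22 and 0.26 TPM in IL-1b-treated, 0.28, 0.02 and 0.59 TPM in cultured and 18.3, 20.9 and 17.95 TPM in fresh libraries.

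The other myeloid members were near 0 after culture. Lyz2, the lysozyme of macrophages and neutrophils, had 0.06, 0.14 and 0.06 TPM in IL-1b-treated, 0, 0 and 0.30 TPM in cultured and 11.96, 14.6 and 10.8 TPM in fresh libraries, and changed by -6.50 ± 0.53 and -6.57 ± 0.53 (log2, SE) in IL-1b-treated and cultured against fresh cells. Tyrobp, the adaptor DAP12 shared by myeloid and NK receptors, had 0 counts in every IL-1b-treated library, 1, 0 and 0 in cultured and 16, 14 and 11 in fresh libraries. Csf1r, the receptor that keeps macrophages alive, had 7, 4 and 1 counts in IL-1b-treated, 0, 1 and 5 in cultured and 60, 42 and 50 in fresh libraries, and its counts may include reads shared with Hmgxb3 on the other strand. Itgax, the CD11c integrin of dendritic cells, had 1, 0 and 1 counts in IL-1b-treated, 1, 0 and 0 in cultured and 40, 29 and 31 in fresh libraries. Fcer1g, the signalling gamma chain of Fc receptors, was too sparse to test, with 3 counts over the IL-1b-treated, 1 over the cultured and 17 over the fresh libraries. Lyz2, Tyrobp, Csf1r and Itgax passed the filter through the fresh libraries alone, so that their fall was built into their selection and is given as a description.

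The NK members did not move as 1 group. Prf1, the pore protein perforin, had 4.81, 5.78 and 6.50 TPM in IL-1b-treated, 6.37, 8.24 and 6.09 TPM in cultured and 38.6, 33.7 and 40.7 TPM in fresh libraries. It changed by -2.15 ± 0.12 (adjusted p = 2.42e-13) in IL-1b-treated and -2.16 ± 0.12 (adjusted p = 3.40e-13) in cultured against fresh cells, with no overlap. Klrd1, the CD94 chain of an inhibitory receptor for MHC class I, had 6.21, 3.30 and 7.05 TPM in IL-1b-treated, 6.35, 7.83 and 6.04 TPM in cultured and 14.4, 18.2 and 11.3 TPM in fresh libraries. Its change was -0.71 ± 0.29 (adjusted p = 0.0323) in IL-1b-treated and -0.97 ± 0.29 (adjusted p = 0.00637) in cultured against fresh cells, and the IL-1b-treated call was lost without IL-1b-treated replicate 2 (adjusted p = 0.160), fresh replicate 1 (0.0856) or fresh replicate 2 (0.129). Nkg7, a cytotoxic granule protein of NK and CD8 T cells, had 6.55, 3.09 and 7.63 TPM in IL-1b-treated, 7.90, 8.64 and 4.49 TPM in cultured and 4.84, 4.15 and 6.32 TPM in fresh libraries, and all groups overlapped. Its log2 fold change was 0.77 ± 0.35 (adjusted p = 0.0602) in IL-1b-treated and 0.81 ± 0.35 (adjusted p = 0.0539) in cultured against fresh cells, the 1 tested member that was not called. That call depended on the setting: Nkg7 passed in cultured against fresh cells without IL-1b-treated replicate 2 (0.0307), IL-1b-treated replicate 3 (0.0444) or cultured replicate 3 (0.0207), and in IL-1b-treated against fresh cells without IL-1b-treated replicate 2 (0.0108). Ncr1, the activating receptor NKp46 that defines NK cells among lymphocytes, had 0 counts in every IL-1b-treated library, 2, 0 and 0 in cultured and 0, 3 and 7 in fresh libraries.

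CD8 transcripts, which mark the other conventional T cells that use perforin and Nkg7, went the other way from Prf1. Cd8b1 had 29.7, 28.8 and 31.0 TPM in IL-1b-treated, 31.2, 35.7 and 28.6 TPM in cultured and 17.4, 17.1 and 18.5 TPM in fresh libraries. Cd8a and Cd8b1 were both called higher in both comparisons with fresh cells. So were 32.9% of all genes tested in IL-1b-treated and 29.4% in cultured cells. The sum of the pair was 37.9 to 42.4 TPM in IL-1b-treated, 41.2 to 50.1 TPM in cultured and 23.8 to 25.6 TPM in fresh libraries. Neither gene of the CD8 list was at 0 in any group, and the part of CD8 T cells in the NK values was not tested.

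**Figure D3:**
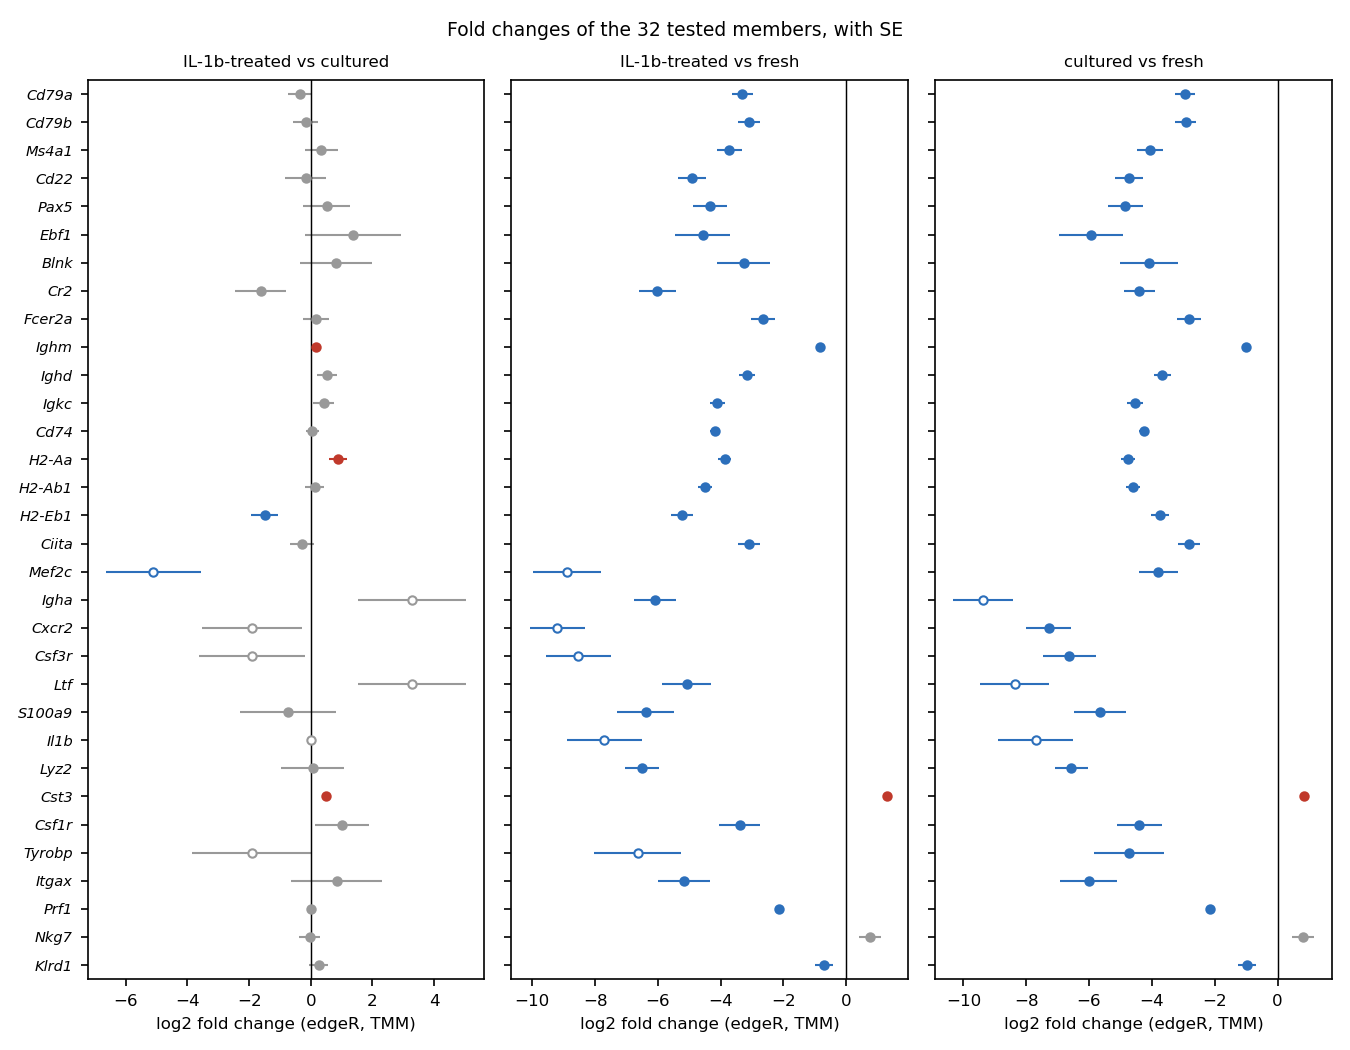
Log2 fold change with SE (edgeR, TMM scaling) of the 32 tested members in each comparison, with different horizontal scales. Red marks members called higher, blue those called lower and grey those not called; open points have 0 counts in a whole group, where the fitted value depends on the fitting procedure. Between IL-1b-treated and cultured cells 3 points are red and 2 blue, and in each comparison with fresh cells 30 are blue, with Cst3 alone in red and Nkg7 alone in grey.

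The fresh libraries differed among themselves in these transcripts. Fresh replicate 1 had the lowest fresh TPM for 24 of 35 members, among them 16 of the 19 B cell genes, and the neutrophil genes had their highest fresh TPM in replicate 2 for 5 of 6. The B cell sum without Ighm was 373 TPM in fresh replicate 1, against 513 and 473 TPM in replicates 2 and 3, and the neutrophil sum was 18.2 TPM against 42.8 and 33.5 TPM. Blnk went the other way, with its lowest fresh level in replicate 3. Without fresh replicate 1, 31 members were called lower and 1 higher in cultured cells, and 30 lower and 1 higher in IL-1b-treated cells, against fresh cells.

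Other genes of the same cell types, listed from general knowledge but with earlier results of these data known, were counted beside the members. How many genes of these lists passed the filter through the fresh libraries alone was not counted. In any that did, a fall was built into the selection, so the falls in these lists are a description. Against fresh cells, 28.9% of all genes tested fell and 29.4% rose in cultured cells. In IL-1b-treated cells 32.6% fell and 32.9% rose. Of 16 tested further B cell genes all 16 fell in cultured cells and 15 in IL-1b-treated cells against fresh cells. Cd72, a B cell coreceptor, had 2.87 to 6.14 TPM in IL-1b-treated, 3.18 to 4.6 TPM in cultured and 45.5 to 51.6 TPM in fresh libraries. Pou2f2, the octamer factor Oct-2, is also expressed in T cells and was lower by far less, with a log2 fold change of -0.33 ± 0.07 in IL-1b-treated and -0.19 ± 0.07 in cultured against fresh cells. Pou2af1, its B cell coactivator, changed by -2.36 ± 0.22 in IL-1b-treated and -2.92 ± 0.23 in cultured cells.

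The further class II genes fell in 7 of 9 cases in IL-1b-treated and 8 of 9 in cultured cells against fresh cells, and by smaller steps for the abundant ones. H2-Ob, a subunit of the class II loading regulator, had 38.9 to 47.9 TPM in IL-1b-treated, 46.6 to 55.7 TPM in cultured and 78.5 to 87.6 TPM in fresh libraries. H2-DMa, a subunit of the peptide exchange factor, changed by -1.002 ± 0.14 in IL-1b-treated and -0.92 ± 0.13 in cultured cells against fresh cells. Rfxap, part of the RFX complex that binds class II promoters in many cell types, was called lower in cultured (-0.36 ± 0.10, adjusted p = 0.00487) and not in IL-1b-treated cells (-0.18 ± 0.10, adjusted p = 0.125) against fresh cells. Of 5 tested genes linked to plasma cells, 3 rose and 2 fell in IL-1b-treated and 2 rose and 2 fell in cultured against fresh cells. Xbp1, a factor of the secretory stress response used by many cells, rose by 0.87 ± 0.07 in IL-1b-treated and 0.79 ± 0.07 in cultured cells, and Prdm1, which encodes Blimp-1 in both B and T cells, by 0.76 ± 0.14 in IL-1b-treated and 1.36 ± 0.14 in cultured cells. Jchain, which joins IgM and IgA into polymers, fell by 5.29 and 3.76 on the log2 scale in IL-1b-treated and cultured against fresh cells.

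Of 13 tested further myeloid genes 10 fell in each comparison with fresh cells, and 2 rose in IL-1b-treated cells. Ctss, the protease cathepsin S that cystatin C inhibits, had 180 to 189 TPM in IL-1b-treated, 161 to 167 TPM in cultured and 183 to 186 TPM in fresh libraries. Its log2 fold change was 0.56 ± 0.04 (adjusted p = 2.03e-11) in IL-1b-treated and 0.07 ± 0.04 (adjusted p = 0.171) in cultured against fresh cells on the count scale, whereas in TPM the IL-1b-treated and fresh levels overlapped. Csf2ra, the GM-CSF receptor, changed by -2.85 ± 0.33 and -3.51 ± 0.34, and Cebpb, a myeloid transcription factor, by -2.37 ± 0.37 and -2.51 ± 0.37 in IL-1b-treated and cultured against fresh cells. Of 4 tested further neutrophil genes, Ngp, a granule protein, was called lower in both comparisons; Cxcr1 was called higher in cultured cells (0.94 ± 0.36, adjusted p = 0.0277), and G0s2 in neither. Of 16 listed neutrophil genes 10 were at 0 in all IL-1b-treated libraries, 7 in all cultured and 1 in all fresh libraries.

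Of 6 tested further NK genes 5 fell and 1 rose in each comparison with fresh cells. The gene that rose was Il2rb, the beta chain of the IL-2 and IL-15 receptors, which T cells also carry, by 0.29 ± 0.09 in IL-1b-treated and 0.50 ± 0.09 in cultured cells. Ccl5, a chemokine of cytotoxic cells, changed by -3.34 ± 0.72 and -2.81 ± 0.67, and Fasl, the ligand of the death receptor Fas, by -1.22 ± 0.29 and -0.78 ± 0.28 in IL-1b-treated and cultured against fresh cells. Of 2 tested dendritic cell genes, Bst2, an antiviral membrane protein made by many leukocytes, fell in both comparisons. Fscn1 and Clec10a, from the same list, had 0 counts in every library of cells kept in vitro and were not tested. In fresh libraries Fscn1 had 7, 4 and 1 counts and Clec10a 1, 5 and 2.

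**Figure D4:**
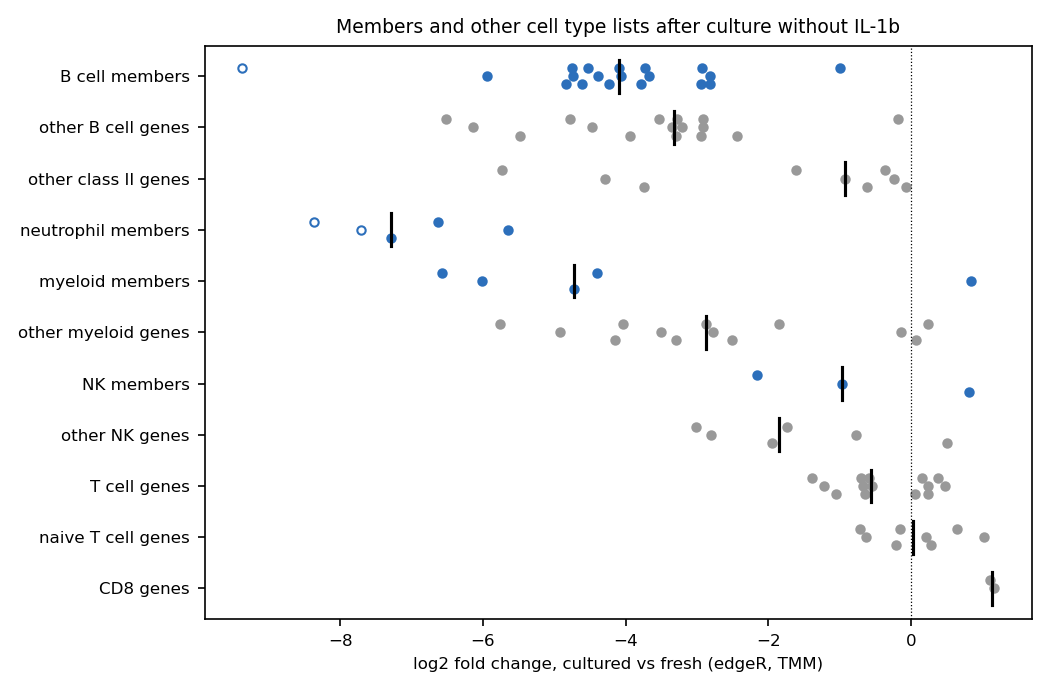
Log2 fold change in cultured against fresh cells (edgeR, TMM scaling) of tested genes in the 4 lineages of members (blue) and in other lists of cell type genes (grey). Points are genes, open where the cultured group has 0 counts, and black bars are medians with fitted values as drawn. The B cell, neutrophil and most myeloid points lie far left of 0, while the T cell lists spread on both sides of 0 and both CD8 genes lie to its right.

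T cell genes moved much less. The 14 T cell identity genes had a median log2 fold change of -0.42 in IL-1b-treated and -0.57 in cultured against fresh cells. Of these, 5 rose and 8 fell in each comparison. Of 8 naive T cell genes 4 rose and 3 fell in IL-1b-treated and 4 rose and 4 fell in cultured cells. Of all genes tested 32.9% rose and 32.6% fell in IL-1b-treated cells. In cultured cells 29.4% rose and 28.9% fell. Tcf7, a factor of the naive state, stood at 390 to 408 TPM in IL-1b-treated, 577 to 589 TPM in cultured and 1130 to 1174 TPM in fresh libraries, and Ccr7, the receptor that directs T cells into lymph nodes, at 352 to 369, 397 to 412 and 391.55 to 393.5 TPM in the same order of groups. Transcripts of the remaining cell types were low or are also made by T cells. The haemoglobin genes Hba-a1, Hba-a2 and Hbb-bs reached 9.32, 12.6 and 10.3 TPM in fresh libraries. After culture they had at most 2.34, 0.50 and 1.76 TPM. Mast cell and basophil genes summed to 1.51 TPM at most in any library. Of 2 tested red cell and platelet genes, 1 fell in IL-1b-treated cells and 1 rose and 1 fell in cultured cells. The stromal list was carried by Pecam1, an adhesion molecule that naive T cells also make, at 140 to 149 TPM in IL-1b-treated, 180 to 181 TPM in cultured and 149 to 162 TPM in fresh libraries, and 4 of its 8 genes were at 0 in all fresh libraries. The gamma delta T cell gene Trdc had 1.5 to 2.01 TPM in IL-1b-treated, 2.14 to 3.16 TPM in cultured and 2.83 to 3.80 TPM in fresh libraries and was called in neither comparison.

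Of the 32 tested members 3 rose and 2 fell in IL-1b-treated against cultured cells, where 15.6% of all genes tested rose and 13.3% fell, 28.9% in all. Among the 15 members that passed the filter without the fresh libraries 3 rose, 1 fell and 11 were not called. The split over all genes moved with the scaling, to 1192 higher and 3270 lower genes with library size alone and 289 higher and 4452 lower on log2(TPM + 1) with limma. All of the 5 but Cst3 are B cell members. Cst3 rose by 0.48 ± 0.08 on the log2 scale (adjusted p = 6.72e-05), with 883, 830 and 821 counts in IL-1b-treated and 636, 647 and 615 counts in cultured libraries. In TPM, Cst3 was higher in every IL-1b-treated than in any cultured library. Ighm and H2-Eb1, 2 of 35 members, were lower in every IL-1b-treated than in any cultured library, where 45% of all genes tested were lower. For Cst3, limma on log2(TPM + 1) gave a difference of 0.15 (adjusted p = 0.122).

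Ighm changed direction with the scale. It had 3635, 2910 and 2960 counts in IL-1b-treated and 2925, 2956 and 3006 counts in cultured libraries and was called higher by 0.16 ± 0.04 (adjusted p = 0.00607) with TMM scaling. In TPM every IL-1b-treated library lay below every cultured one, and limma on log2(TPM + 1) called Ighm lower, at -0.15 (adjusted p = 0.0495). The median of all genes tested was -0.25 on that scale and -0.01 with TMM scaling, so that relative to the median gene Ighm was higher on both. With library size alone the difference was 0.04 (adjusted p = 0.474).

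The class II genes gave calls from few reads. H2-Aa had 18, 26 and 25 counts in IL-1b-treated and 16, 13 and 10 counts in cultured libraries (0.89 ± 0.29, adjusted p = 0.0259). H2-Eb1 had 12, 0 and 10 counts in IL-1b-treated and 19, 23 and 23 counts in cultured libraries (-1.49 ± 0.44, adjusted p = 0.0135), and overlaps Gm20513 on the other strand. The H2-Aa and H2-Eb1 counts thus went opposite ways, while Cd74 (0.05 ± 0.21, adjusted p = 0.894) and H2-Ab1 (0.12 ± 0.32, adjusted p = 0.825) were not called. The H2-Aa call was lost without IL-1b-treated replicate 2 (0.102) or 3 (0.0749) and without cultured replicate 2 (0.0634) or 3 (0.116). With only the 6 libraries compared, neither gene was called (adjusted p = 0.179 for H2-Aa and 0.0872 for H2-Eb1). Mef2c, with 0 counts in IL-1b-treated and 12 over the cultured libraries, was at least 4.14-fold lower with IL-1b (adjusted p = 0.0172), a call lost without cultured replicate 3 (0.0766). It was also lost with limma-voom (0.131), with the effective length offset (0.0838) and with limma on log2(TPM + 1) (0.556) or log2(TPM + 0.1) (0.172). Mef2c passed the filter through the fresh libraries alone.

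The remaining members were not called between IL-1b-treated and cultured cells. The well-counted Prf1, with 534 counts over the IL-1b-treated and 557 over the cultured libraries, had a log2 fold change of 0.01 ± 0.13 (adjusted p = 0.970). Igkc, with 60 and 47 counts, had one of 0.42 ± 0.34 (adjusted p = 0.404). The widest uncertainty was in genes with a handful of reads. Over all libraries of a group, 16 of 35 members had 10 or fewer counts in IL-1b-treated cells and 15 in cultured cells, against 1 in fresh cells. The B cell sum without Ighm was 96.5% of the cultured level in IL-1b-treated cells, and the libraries of the groups overlapped. Among the further lists, Spib and Bcl11a, B cell transcription factors named here because they were called, rose with IL-1b by 3.09 ± 0.87 (adjusted p = 0.00921) and 3.46 ± 1.05 (adjusted p = 0.0156); both were picked after their values were seen.

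The deposited effective lengths touch the sparse members. For genes with few reads the deposited effective length changed between libraries, so that 16 counts of Cd22 in IL-1b-treated replicate 3 stand as 2.56 TPM at an effective length of 444 bases, while 17 counts in cultured replicate 1 stand as 0.41 TPM at 3593 bases. On the log2(TPM + 0.5) scale the median of all genes was -0.50 in IL-1b-treated and -0.21 in cultured against fresh cells. That of the 19 B cell members was -3.22 and -2.85 on the same scale. Of these, 11 pass the filter without the fresh libraries. In the others a fall was built into the selection, so the members' median is a description. An offset for effective length left the 30 members called lower in each comparison with fresh cells. Of these, 13 pass the filter without the fresh libraries, and for the others the fall was built into the selection.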

How the data were processed

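Polyadenylated RNA of 9 libraries, 3 per group, was sequenced. Per the labels' protocols, total RNA was extracted with RNAiso PLUS, cleaned up and turned into stranded libraries (NEBNext Ultra II Directional). STAR and RSEM were used with mm10, per the submitters' processing notes; versions, annotation and strand setting were not given in the sources used here. The deposited tables hold, per the file headers, expected counts per gene as RSEM estimated them (not normalised), and TPM values that the authors' RSEM run made from counts and effective lengths. FPKM values, deposited in the same tables per the file headers, were not used here. Gene symbols and positions came from GENCODE M21 on GRCm38, where 55141 of 55487 identifiers matched (99.38%).

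Expected counts were rounded and tested with edgeR 4.0.16 in R 4.3.3 (TMM scaling, filterByExpr, quasi-likelihood F test, group as the only term over all 9 libraries, Benjamini-Hochberg adjustment over 13043 genes, threshold 0.05). The floor of a library was 3 counts, or 0.130 to 0.222 CPM, and intervals and floors cover counting error only. Lineage sums add the members' TPM and have no test. All 35 members are named; values per library are given for up to 5 members of highest mean TPM per lineage among those tested and for each member called between IL-1b-treated and cultured cells, and other lists are given as counts with up to 3 genes of highest mean TPM. Some genes of these lists are not reported here. The members, lists and tests were chosen with earlier results of these data known. No other per-sample columns were present. Alternatives used other scalings, filters, tests (DESeq2 1.42.0, limma 3.58.1), units, length corrections and libraries. On simulated data with 200 changed genes, 98% of 2-fold changes were found for IL-1b-treated over cultured cells (12792 genes, with 11 false calls), 88% for IL-1b-treated over fresh (12813 genes, with 14) and 94% for cultured over fresh (12808 genes, with 17). The simulation gave all genes the same spread, kept all other genes unchanged and left the sparsest genes out of those changed. Its recovery therefore does not describe members with few counts after culture.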

Additional observations from a re-analysis of the deposited data

How the results depend on the processing

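Of the called members, 29 of 31 genes kept their call and direction under every alternative that tested them in cultured against fresh cells, 28 of 31 in IL-1b-treated against fresh cells and 0 of 5 in IL-1b-treated against cultured cells; the exceptions in the comparisons with fresh cells were Cst3 and Klrd1, and Ighm, Klrd1 and Blnk. Members called lower between IL-1b-treated and cultured cells numbered 2 in the report, 1 with limma-voom, 0 with an effective length offset, 0 with only the 6 libraries compared, and 1 to 3 when a library was left out; those called higher numbered 3 in the report, 0 on log2(TPM + 1) and 0 on log2(TPM + 0.1), 1 with the effective length offset, 0 at an absolute log2 fold change of at least 1, and 2 to 3 when a library was left out. In cultured against fresh cells the members called higher numbered 1 in the report, 2 with no filter on low counts, with DESeq2 or with only the 6 libraries compared, 0 at an absolute log2 fold change of at least 1, and 1 to 2 when a library was left out; those called lower numbered 30 to 31 when a library was left out, 29 at an absolute log2 fold change of at least 1 and 28 with at least 1 CPM in 3 libraries. In IL-1b-treated against fresh cells 1 to 2 were called higher and 29 to 31 lower when a library was left out, and 28 lower with that fold threshold or with that filter. At an unadjusted p under 0.05, limma on either TPM scale gave 0 members higher and 2 lower between IL-1b-treated and cultured cells, and edgeR gave 2 lower with the effective length offset and 1 lower with only the 6 libraries compared; with DESeq2 it was 4 higher and 3 lower. Ighm reversed between IL-1b-treated and cultured cells to -0.15 on log2(TPM + 1) and log2(TPM + 0.1), with adjusted p = 0.0495 and 0.0497. The log2 ratio of the B cell sum between IL-1b-treated and cultured cells was -0.14 in TPM and 0.0331 in CPM, and that of the myeloid sum against fresh cells was 0.31 in IL-1b-treated and 0.16 in cultured cells with Cst3 and -5.57 and -6.01 without it. The cause of these changes was not tested, apart from sums whose largest member was removed.

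Same-numbered libraries of different groups did not deviate together (r from -0.0222 to 0.019), and with the replicate number as a block 3 members rose and 2 fell in IL-1b-treated against cultured cells and 1 rose and 30 fell in each comparison with fresh cells. Over all genes, library size alone gave 1192 higher and 3270 lower genes between IL-1b-treated and cultured cells, log2(TPM + 1) 289 and 4452, log2(TPM + 0.1) 286 and 4494, the effective length offset 1234 and 917, and removal of the length trend 912 lower. At an absolute log2 fold change of at least 1 the counts were 34 higher and 82 lower in IL-1b-treated against cultured, 1313 and 1250 in IL-1b-treated against fresh and 763 and 891 in cultured against fresh cells; on log2(TPM + 1) the last 2 comparisons gave 1527 higher and 7113 lower, and 1877 higher genes. Depth limits the members after culture, where 16 of 35 in IL-1b-treated and 15 of 35 in cultured cells had 10 or fewer counts over the group.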
